A study of Mus musculus with 12 samples.

Results

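Rgs5 and Rgs4 encode regulators of G protein signalling, and their transcripts were followed in cultured bone marrow stroma from mice lacking 1 copy of a transcriptional coactivator. The probe sets were chosen by their annotation, as all those with Rgs5 or Rgs4 as the single gene symbol: 4 for Rgs5 and 1 for Rgs4, 5 of the 3109 probe sets tested and 2 of 1974 genes. They were taken up because of their levels in Crebbp+/- against wild type in these arrays. Bone marrow stroma is the adherent layer that grows out of plated marrow. There were 4 arrays from Crebbp+/- mice, 4 from Ep300+/- mice and 4 from wild-type mice, all C57BL/6 and 3 to 4 months old, and each genotype's arrays are described as separate biological replicates. Every culture had been grown for 2 weeks and then irradiated with 1500 cGy, wild-type cultures included, so no culture without irradiation stands beside them. Crebbp and Ep300 encode related histone acetyltransferases. The labels do not describe the alleles, and the cells of a culture were not sorted. Levels are log2 values made by the authors with GCRMA, which corrects background from probe sequence and normalizes between arrays. Such values are relative, so differences are compared between genotypes within a probe set and levels are not compared between probe sets.

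RGS proteins bind the active alpha subunit of a heterotrimeric G protein and speed its GTP hydrolysis, which shortens the signal from G protein-coupled receptors. Rgs5 and Rgs4 belong to the same subfamily of small members and act on alpha subunits of the Gi and Gq classes. Rgs5 is widely used as a marker of pericytes, the mural cells wrapped around capillaries, and Rgs4 is best known from brain and heart. In mammals both proteins are degraded through a destabilizing cysteine at the amino terminus. The genes are neighbours on mouse chromosome 1, with 0 annotated protein-coding genes between them, and are transcribed towards each other. Since the members were taken up together, the 250 bases before each annotated start are shown 5′ to 3′ on the strand of the gene (RefSeq, GRCm38.p6, Rgs5 at chr1:169655251-169655500 on the plus strand and Rgs4 at chr1:169747643-169747892 on the minus strand). Capitals mark CCAAT boxes (CCAAT, read here as ATTGG), CRE half-sites (TGACG or CGTCA) and TATA boxes (TATAAA).
Rgs5: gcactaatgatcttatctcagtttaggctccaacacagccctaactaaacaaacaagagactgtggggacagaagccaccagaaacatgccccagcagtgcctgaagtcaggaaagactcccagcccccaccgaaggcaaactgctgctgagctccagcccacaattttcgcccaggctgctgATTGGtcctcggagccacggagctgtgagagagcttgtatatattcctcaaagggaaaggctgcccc
Rgs4: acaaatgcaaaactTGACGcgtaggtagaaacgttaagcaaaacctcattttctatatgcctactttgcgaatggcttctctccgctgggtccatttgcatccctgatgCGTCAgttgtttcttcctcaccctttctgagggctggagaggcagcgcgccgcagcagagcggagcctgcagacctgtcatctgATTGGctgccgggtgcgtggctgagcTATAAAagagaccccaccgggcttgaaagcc
CRE half-sites are bound by CREB, the factor after which the Crebbp product is named. These letters and the GC box (GGGCGG) were searched on both strands. The Rgs5 window held 1 CCAAT box, at bases 67 to 63 before the start, and 0 CRE half-sites, TATAAA matches and GC boxes. Only the letters TATAAA were searched for a TATA box, so the tatatat near the end of this window was not counted. The Rgs4 window held 1 CCAAT box, at bases 57 to 53 before the start, 2 CRE half-sites, 1 TATA box at bases 31 to 26 and 0 GC boxes. These matches are letters only. Of 32851 promoter windows of the same length, 33.8% held a CCAAT box, 17.8% a CRE half-site, 12.4% a TATA box and 32.7% a GC box.

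Some facts of the whole table bear on all values. Array medians ran between 7.98 and 8.43 on the log2 scale, and every probe set in the table had an interquartile range over the arrays of 0.5001 or more and reached the log2 of 100 on 3 arrays or more. Crebbp, the targeted gene, averaged 7.74 ± 0.091 in Crebbp+/- stroma, 8.65 ± 0.12 in Ep300+/- stroma and 8.52 ± 0.058 in wild-type stroma (SD, n = 4 each). Whether the Crebbp probes lie within the altered part of the gene is not given in the sources used. Ep300 itself was not analysed here, and the Ep300+/- labels could not be checked in this way. Of 16 marrow reticular stroma markers, 9 were measured. Among them the chemokine Cxcl12 averaged 14.66 ± 0.47 in Crebbp+/-, 14.16 ± 0.46 in Ep300+/- and 14.41 ± 0.38 in wild-type stroma. The cultures also carried macrophage and endothelial transcripts. The macrophage receptor Cd163 averaged 14.27 in Crebbp+/-, 13.92 in Ep300+/- and 13.08 in wild type.

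Rgs5 was higher in Crebbp+/- stroma by all 4 of its probe sets, while Ep300+/- and wild-type arrays overlapped on each of them. By 1417466_at, the probe set annotated to the RefSeq transcript NM_009063, the log2 levels of Crebbp+/- replicates 1 to 4 were 13.49, 13.35, 13.53 and 11.69. Those of Ep300+/- stroma were 11.09, 10.88, 11.24 and 9.09. Those of wild-type stroma were 11.78, 10.31, 9.97 and 9.71. Crebbp+/- replicates 1, 2 and 3 stood above every other array, while Crebbp+/- replicate 4 lay 0.085 below wild-type replicate 1, so Crebbp+/- and wild type overlapped by 1 array pair of 16. Ep300+/- and wild-type stroma overlapped throughout. The means were 13.01 ± 0.88 in Crebbp+/-, 10.58 ± 1.002 in Ep300+/- and 10.44 ± 0.92 in wild-type stroma (SD, n = 4 each), so Crebbp+/- exceeded wild type by a log2 difference of 2.57, a 5.95-fold higher level. In bulk RNA, more cells of a type and more RNA per cell cannot be told apart.

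**Figure D1:**
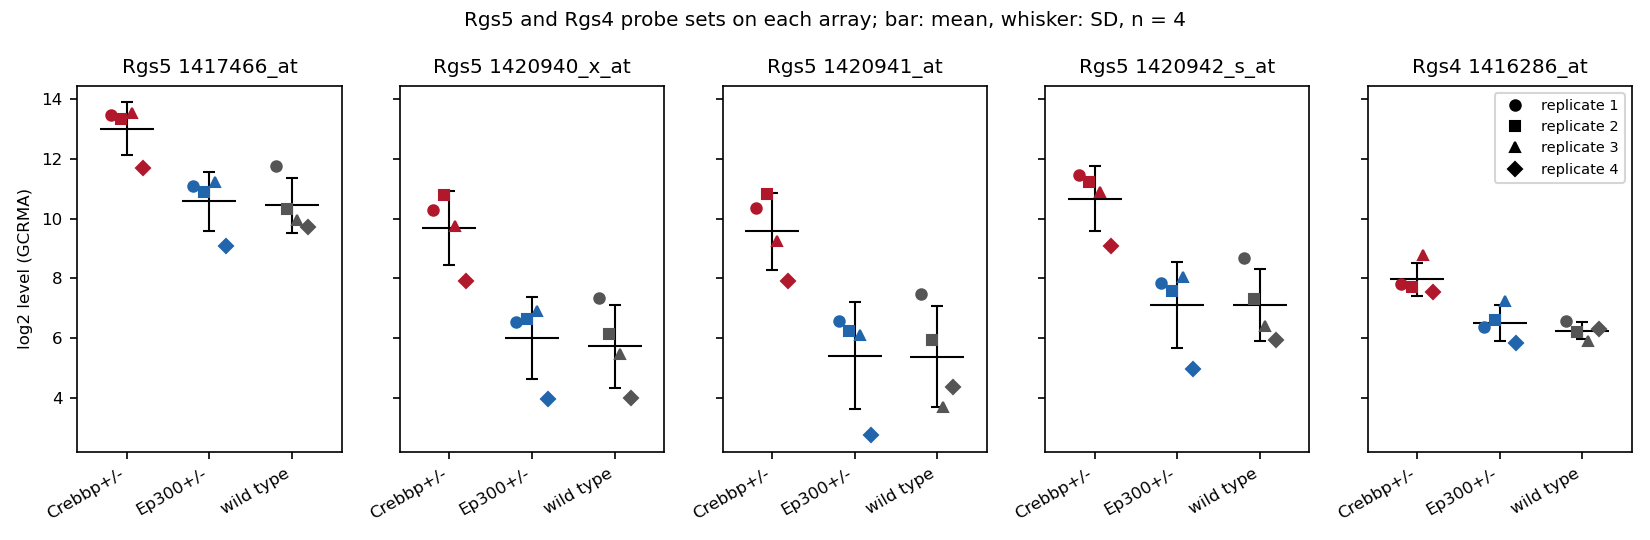
Log2 level (GCRMA, y axis) of the 4 Rgs5 probe sets and the Rgs4 probe set on each array, by genotype (x axis), with points for replicates and bars for mean and SD (n = 4). On 1417466_at the Crebbp+/- arrays lie between 11.69 and 13.53, against 9.09 to 11.24 in Ep300+/- and 9.71 to 11.78 in wild type.

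The other 3 Rgs5 probe sets share 1 source sequence, the expressed sequence tag BF585144, so they are not independent of each other. By the array maker's naming, the suffix _x_at marks probes that may cross-hybridize and _s_at marks probes shared by more than 1 transcript. By 1420942_s_at the Crebbp+/- levels were 11.47, 11.24, 10.91 and 9.08, the Ep300+/- levels 7.84, 7.57, 8.05 and 4.95, and the wild-type levels 8.69, 7.32, 6.41 and 5.94. All 4 Crebbp+/- arrays lay above all others, the lowest by 0.40 above wild-type replicate 1, and the log2 difference of means from wild type was 3.59. By 1420940_x_at the Crebbp+/- levels were 10.28, 10.78, 9.76 and 7.92, the Ep300+/- levels 6.54, 6.63, 6.91 and 3.95, and the wild-type levels 7.33, 6.12, 5.46 and 3.98. Here too the Crebbp+/- arrays did not overlap the other genotypes, and the log2 difference from wild type was 3.96. By 1420941_at the Crebbp+/- levels were 10.35, 10.83, 9.24 and 7.90, the Ep300+/- levels 6.57, 6.23, 6.10 and 2.75, and the wild-type levels 7.47, 5.95, 3.70 and 4.35. The log2 difference from wild type was 4.21, again without overlap. Several Ep300+/- and wild-type values of these 2 probe sets lie near the bottom of the table, whose lowest value is 1.65, and the size of the difference rests on them. The filter also bears on them: 1420941_at reached the log2 of 100 on 4 Crebbp+/- arrays, 0 Ep300+/- arrays and 1 wild-type array, and 1420940_x_at on 4, 1 and 1.

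The 4 Rgs5 probe sets gave the arrays nearly the same order and differed in the size of the step. Between pairs of them, Pearson's r over the 12 arrays was 0.970 to 0.993. For deviations from the genotype means, which do not hold the genotype step, it was 0.911 to 0.981. Both are descriptions of 1 set of 12 RNA samples measured by several probe sets. Crebbp+/- replicate 4 was the lowest Crebbp+/- array on 4 of 4 probe sets, Ep300+/- replicate 4 the lowest Ep300+/- array on 4 of 4, and wild-type replicate 1 the highest wild-type array on 4 of 4. The wild-type array of lowest level was replicate 4 on 3 probe sets and replicate 3 on 1420941_at. The SD within a genotype was 0.88 to 1.30 in Crebbp+/-, 1.002 to 1.79 in Ep300+/- and 0.92 to 1.69 in wild-type stroma.

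**Figure D2:**
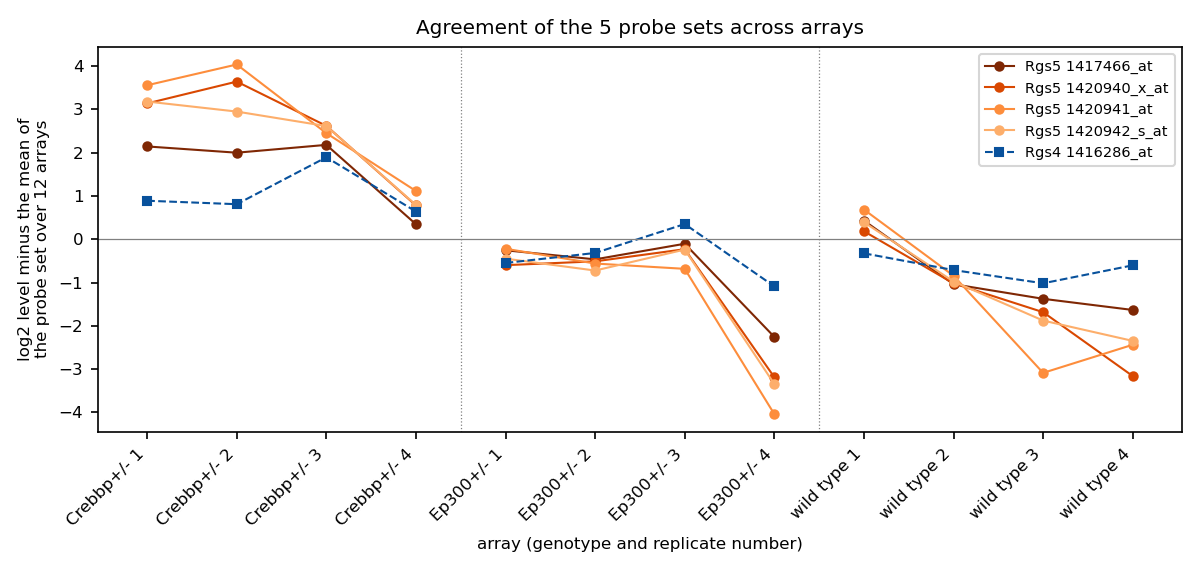
Log2 level minus the mean of each probe set over the 12 arrays (y axis) for the 4 Rgs5 probe sets (solid) and Rgs4 (dashed), by array (x axis). The Rgs5 lines fall together at Crebbp+/- replicate 4 and Ep300+/- replicate 4, and Rgs4 peaks at replicate 3 of both heterozygotes.

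Rgs4 was measured by 1 probe set, 1416286_at, and was likewise higher in Crebbp+/- stroma by a smaller step. Its log2 levels were 7.79, 7.71, 8.80 and 7.54 on Crebbp+/- replicates 1 to 4. Ep300+/- stroma had 6.36, 6.59, 7.26 and 5.82, and wild-type stroma had 6.58, 6.19, 5.89 and 6.30. Every Crebbp+/- array lay above every other array, by 0.96 over the highest wild-type array and by 0.29 over the highest Ep300+/- array. As for Rgs5, replicate 4 was the lowest array of both heterozygotes and replicate 1 the highest of wild type. Replicate 3 was the highest array of both heterozygotes, as it was on 3 of 4 Rgs5 probe sets in Ep300+/- and on 1 of 4 in Crebbp+/- stroma. The means were 7.96 ± 0.57 in Crebbp+/-, 6.50 ± 0.60 in Ep300+/- and 6.24 ± 0.29 in wild-type stroma (SD, n = 4 each), a log2 difference of 1.72 (3.30-fold) between Crebbp+/- and wild type. The probe set reached the log2 of 100 on 4 Crebbp+/- arrays, 1 Ep300+/- array and 0 wild-type arrays, so it is in the table through its Crebbp+/- level.

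Crebbp+/- against wild type is the contrast from whose results these genes were taken up, so its values are given with no test. Of the 5 probe sets, 4 had every Crebbp+/- array above every wild-type array, as had 10.4% of all probe sets, and nothing is read from that count. In limma's fit over all probe sets, 6.18% were called at an adjusted p under 0.05 in that contrast (5.02% higher and 1.16% lower). Within arrays of the same replicate number, Crebbp+/- exceeded wild type on 1417466_at by 1.71, 3.04, 3.56 and 1.98 log2 units for numbers 1 to 4, and on Rgs4 by 1.21, 1.52, 2.91 and 1.24. All 20 such differences over the 5 probe sets were positive. For 4 of the 5 this follows from the lack of overlap, and nothing is read from that count. Against Ep300+/- stroma, which shares the Crebbp+/- arrays with that contrast, the log2 differences were 2.44 by 1417466_at, 3.57 by 1420942_s_at, 3.68 by 1420940_x_at, 4.17 by 1420941_at and 1.46 for Rgs4. There 5 of 5 probe sets had every Crebbp+/- array above every Ep300+/- array, as had 9.13% of all probe sets, and nothing is read from that count either. In that contrast limma called 6.4% of all probe sets (4.89% higher). The median over all probe sets was itself 0.24 higher in Crebbp+/- than in wild type. Centring each array on its median left log2 differences of 2.37 by 1417466_at and 1.52 for Rgs4.

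Ep300+/- against wild type was not used to take up the genes, apart from the wild-type arrays it shares, and no difference passed. The log2 difference of 1417466_at was 0.13 (SE 0.59, 95% interval -1.14 to 1.41, limma adjusted p = 0.986). That of Rgs4 was 0.26 (SE 0.35, 95% interval -0.51 to 1.03, limma adjusted p = 0.965). The other Rgs5 probe sets had 0.29 by 1420940_x_at (95% interval -1.49 to 2.07), 0.044 by 1420941_at (-2.07 to 2.16) and 0.014 by 1420942_s_at (-1.66 to 1.69), with limma adjusted p-values of 0.979, 0.999 and 0.999. Exact two-sided permutation tests over the arrays gave p = 0.486 for Rgs4 and 0.743 to 1 for Rgs5, where 0.0286 is the smallest value that 4 against 4 arrays allow, and 1 for each after Benjamini-Hochberg adjustment over the 5. In this contrast limma called 0% of all probe sets (0 of 3109, with 126 at an unadjusted p under 0.05). These intervals do not show that the levels are equal. Ordered by mean, Crebbp+/- was highest for each of the 5 probe sets, followed by Ep300+/- and wild type, and the last pair did not differ beyond its spread.

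The arrays at the edges of each genotype carried other marks. Crebbp+/- replicate 4 and Ep300+/- replicate 4 had the lowest array medians of their genotypes (8.15 and 7.98). Wild-type replicate 1 had the highest of its own (8.27). Eif2s3y, a transcript of the Y chromosome, was low on Crebbp+/- replicates 1 and 3 (2.73 and 2.69) and had at least 8.41 on each of the 10 remaining arrays. Crebbp+/- replicate 2, with Eif2s3y at 8.41, had an Rgs5 level of 13.35 by 1417466_at, next to 13.49 and 13.53 on replicates 1 and 3. Crebbp+/- replicate 4, with Eif2s3y at 9.22, had 11.69. With the Eif2s3y class as a covariate the Crebbp+/- minus wild-type difference was 2.08 by 1417466_at and 1.39 for Rgs4. Since the low class holds only Crebbp+/- replicates 1 and 3, the Crebbp+/- mean in that fit rests on replicates 2 and 4 alone. The highest Rgs4 levels of both heterozygotes, 8.80 on Crebbp+/- replicate 3 and 7.26 on Ep300+/- replicate 3, fell on the arrays with the highest Tnf levels, 14.38 and 14.36. Tnf, an inflammatory cytokine, was at 12.29 or less on the other heterozygote arrays and between 7.76 and 9.03 in wild type. Within wild type the order was the reverse. The highest Rgs4 level, 6.58 on replicate 1, fell on the lowest Tnf, and the lowest, 5.89 on replicate 3, on the highest Tnf. The part of these marks in the Rgs levels was not tested.

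Other genes of G protein signalling, and the marker and recruitment genes below, were described from lists taken up with earlier results of these data known. A gene with several probe sets is given by the brightest of them. Of 24 further genes with an RGS domain or RGS-like role, 3 were measured, and 0 rose or fell in Crebbp+/- stroma. Over all probe sets, 5.02% were called higher and 1.16% lower in Crebbp+/- against wild type. Rgs1, a lymphoid and myeloid member, averaged 10.99 ± 1.14 in Crebbp+/-, 11.51 ± 0.93 in Ep300+/- and 10.60 ± 0.32 in wild type. Rgs2, which acts mainly on Gq, averaged 8.71 ± 0.35, 9.31 ± 0.31 and 9.18 ± 0.70 in the same order, and Rgs3 averaged 10.13 ± 0.54, 9.61 ± 0.43 and 9.75 ± 0.35. Their log2 fold changes in Crebbp+/- against wild type were 0.39, -0.47 and 0.38, and the lowest limma adjusted p was 0.400. All 3 values are smaller than the 1.72 of Rgs4. Rgs4 was taken up for its level in that same contrast, so nothing is read from this, and the difference between genes was not tested.

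Of 30 heterotrimeric G protein subunits, 6 were measured and 0 passed in Crebbp+/- against wild type. All 6 log2 fold changes were positive, from 0.10 to 1.03 with a median of 0.54, beside 0.24 over all probe sets. Gng11, a gamma subunit, had the largest (1.03, limma adjusted p = 0.0978), and the alpha subunits Gna13, Gnai1 and Gna12 had 0.76, 0.35 and 0.10. Of 49 Gi- and Gq-coupled receptors and effectors, 5 were measured and 0 passed (median 0.89). The sphingosine 1-phosphate receptor S1pr1 had 1.02 (limma adjusted p = 0.0987), the UDP-glucose receptor P2ry14 0.89 (0.0738) and the phospholipase Plcb4 0.87 (0.0748). P2ry14 also had 0.82 in Ep300+/- against wild type (limma adjusted p = 0.841), with 8.65 ± 0.21 in Crebbp+/-, 8.58 ± 0.48 in Ep300+/- and 7.76 ± 0.23 in wild-type stroma. Of 7 genes of the cysteine N-degron pathway, Ubr1, a ubiquitin ligase, was the 1 measured (0.87, limma adjusted p = 0.169). Since replicate numbers recur in the genotypes, the model was also fitted with that number as a block. This blocked fit called 0 of 3 RGS genes, 1 of 6 subunits (Gng11, limma adjusted p = 0.0172), 3 of 5 receptors and effectors (S1pr1, P2ry14 and Plcb4) and Ubr1, among 812 probe sets called in place of 192. Without Crebbp+/- replicate 4, in the fit without the block, S1pr1 and Plcb4 passed (limma adjusted p = 0.0276 and 0.0377), and without Ep300+/- replicate 3 P2ry14 did (0.0316).

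**Figure D3:**
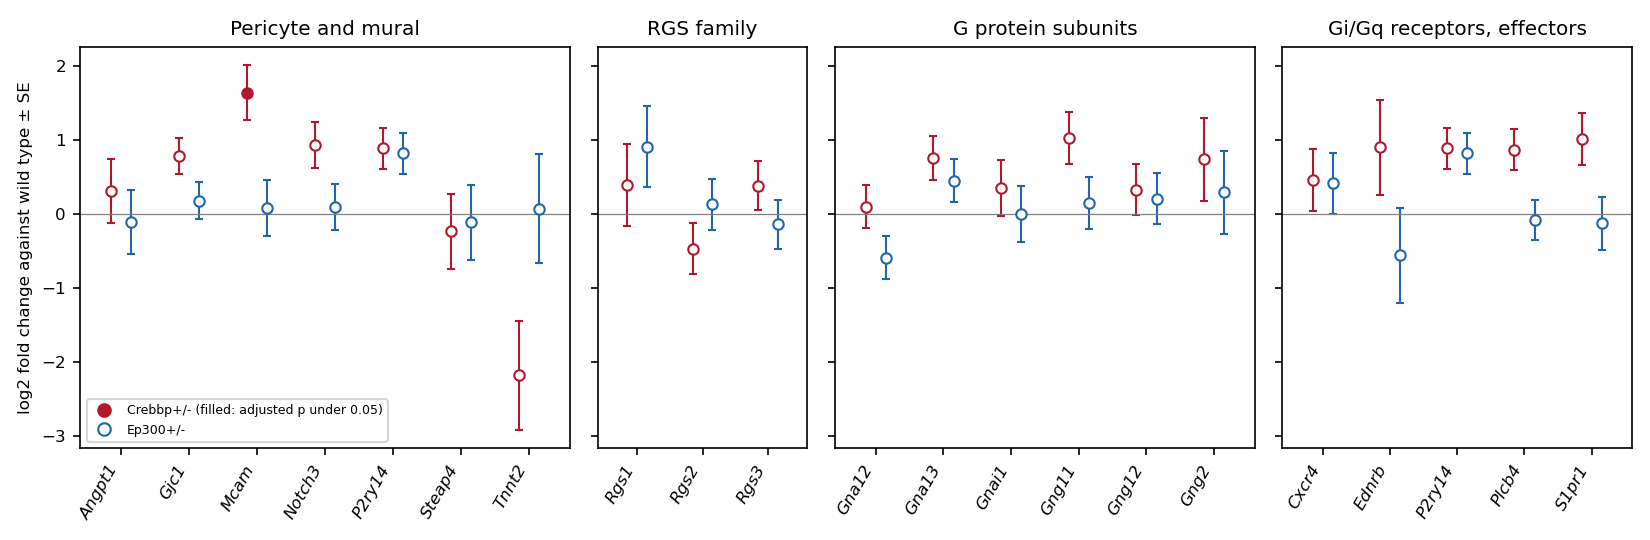
Log2 fold change against wild type ± SE (limma, y axis) of the measured genes of 4 lists (x axis), in red for Crebbp+/- and in blue for Ep300+/-, with filled points for an adjusted p under 0.05. Mcam (1.64 in Crebbp+/-) is the 1 filled point, and Tnnt2 has the lowest value, -2.18.

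Pericyte and mural markers other than the members were mostly not analysed here: 7 of 27 were measured, and the defining Pdgfrb, Cspg4, Kcnj8 and Abcc9 were not among them. The pericyte association of Rgs5 therefore cannot be checked against those genes in these cultures. In Crebbp+/- against wild type 1 of the 7 rose, 6 did not pass and 0 fell (median log2 fold change 0.78, beside 0.24 over all probe sets). Of all probe sets 5.02% were called higher and 1.16% lower in that contrast. Mcam, an adhesion molecule of pericytes that endothelium also carries, was at 9.83, 9.55, 9.34 and 8.26 on Crebbp+/- replicates 1 to 4, at 7.84, 8.01, 7.53 and 7.38 in Ep300+/- stroma and at 8.40, 7.20, 7.20 and 7.63 in wild type. It thus had the Rgs5 pattern of a low Crebbp+/- replicate 4 and a high wild-type replicate 1, and overlapped between those arrays. Its log2 fold change was 1.64 with an SE of 0.37 (limma adjusted p = 0.0261). Its call was lost without Crebbp+/- replicate 1, 2 or 3 (limma adjusted p = 0.106, 0.0849 and 0.0595) and without wild-type replicate 2, 3 or 4 (0.0847, 0.0709 and 0.0813). The mural receptor Notch3 had 0.93 (limma adjusted p = 0.0879) and the gap junction protein Gjc1 0.78 (0.0752). Both passed without Crebbp+/- replicate 4 (1.21 and 0.90, limma adjusted p = 0.0156 and 0.0411). A second probe set of Gjc1, of lower mean, passed (1.27, limma adjusted p = 0.0293) and was lost without Crebbp+/- replicate 1, 2 or 3 or wild-type replicate 2, 3 or 4 (0.0585 to 0.114). The muscle troponin Tnnt2 had -2.18 (limma adjusted p = 0.0947), with Crebbp+/- arrays between 3.84 and 6.88 and wild-type arrays between 5.92 and 8.55. In the fit blocked by replicate number, Mcam, Notch3, Gjc1 and P2ry14 rose and Tnnt2 fell. In Ep300+/- against wild type 0 of the 7 passed (median 0.081).

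Of the smooth muscle contractile genes, the other mural programme listed, 0 passed in Crebbp+/- against wild type. Of 16, 5 were measured, with a median log2 fold change of -0.10. The smooth muscle myosin Myh11 had 0.84 there (limma adjusted p = 0.107). It was the 1 gene of the list that rose in Crebbp+/- against Ep300+/- (1.12, limma adjusted p = 0.0429), where 4.89% of all probe sets were called higher. That call was lost without any 1 array other than Crebbp+/- replicate 4 or Ep300+/- replicate 3 (limma adjusted p up to 0.139). In the fit blocked by replicate number 2 rose, Myh11 and Cald1, and 1 fell, Ckb. Of 26 genes of pericyte recruitment, 13 were measured, and 12 of them did not pass in Crebbp+/- against wild type (median 0.96). In that contrast 5.02% of all probe sets were called higher. The 1 gene that rose was the endothelial receptor Tie1 (log2 fold change 2.32, SE 0.62, limma adjusted p = 0.0431). That call was lost in 8 of 12 fits without 1 array (limma adjusted p up to 0.148), those without Crebbp+/- replicates 1, 2 or 3, Ep300+/- replicates 1 or 2, or wild-type replicates 2, 3 or 4. It was also lost with the 2 genotypes alone and with the Eif2s3y covariate, which left 0 of the list called. The Notch ligand Jag1 did not pass by its brightest probe set, but its other probe set did (1.10, limma adjusted p = 0.0383). Pdgfb, the ligand with which endothelium attracts pericytes, averaged 7.11 ± 0.74 in Crebbp+/-, 6.63 ± 0.27 in Ep300+/- and 5.35 ± 1.12 in wild-type stroma (log2 fold change of Crebbp+/- against wild type 1.76, limma adjusted p = 0.0602). In the fit blocked by replicate number 9 of the 13 rose.

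Markers of the endothelium, the cells that pericytes cover, moved with Rgs5 across arrays. In Crebbp+/- against wild type 9 of the 15 measured markers (18 listed) rose, 6 did not pass and 0 fell (median 1.98, beside 0.24 over all probe sets). Among them Erg, which rose, and Icam2 and Kdr, which did not pass, reached the table's limit on level on Crebbp+/- arrays only. Their highest levels were 5.33, 6.38 and 6.45 in wild type and 5.02, 5.48 and 5.32 in Ep300+/- stroma. Like Rgs4, they are in the table through their Crebbp+/- level, so nothing is read from their differences. The mean of the 15, each centred over the 12 arrays, was 1.97, 1.64, 1.86 and 0.028 on Crebbp+/- replicates 1 to 4. It was -1.05, -0.68, -0.41 and -1.38 in Ep300+/- stroma and 0.35, -0.80, -0.78 and -0.75 in wild type. Rgs5, averaged over its centred probe sets, stood at 3.01, 3.16, 2.47 and 0.76 on those Crebbp+/- arrays, at -0.38, -0.56, -0.31 and -3.20 in Ep300+/- and at 0.43, -0.97, -2.004 and -2.39 in wild type. For deviations from the genotype means, r with the endothelial mean was 0.80 for Rgs5 and 0.64 for Rgs4 over the 12 arrays, which is a description. In the same way r was 0.70 and 0.47 with the mean of the pericyte and mural markers, and -0.32 and -0.46 with that of the smooth muscle genes. With the mean of the reticular stroma markers it was 0.87 and 0.69, higher than with the endothelial mean, so moving with Rgs5 was not particular to endothelium. The junction protein Cdh5 averaged 10.31 ± 0.85 in Crebbp+/-, 8.06 ± 0.55 in Ep300+/- and 8.22 ± 0.46 in wild type. The count of 9 became 0, 0, 2 and 15 without Crebbp+/- replicates 1, 2, 3 and 4, 13, 1, 1 and 0 without wild-type replicates 1, 2, 3 and 4, and 15 in the fit blocked by replicate number. The endothelial part in the Rgs5 level was not tested.

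**Figure D4:**
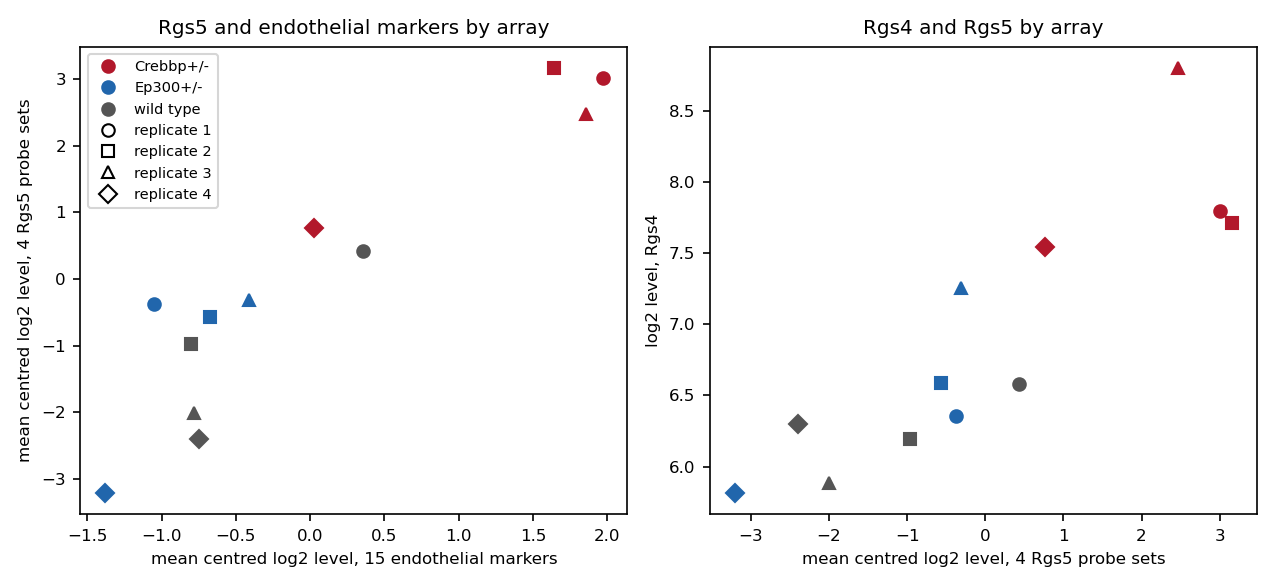
Left, mean centred log2 level of the 4 Rgs5 probe sets (y axis) against that of 15 endothelial markers (x axis), and right, Rgs4 log2 level (y axis) against Rgs5 (x axis), 1 point per array, with colour for genotype and shape for replicate. Crebbp+/- replicates 1 to 3 stand apart at the upper right on the left, and Crebbp+/- replicate 4 lies next to wild-type replicate 1.

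The other cell types listed gave small counts in Crebbp+/- against wild type, where 5.02% of all probe sets were called higher and 1.16% lower. For 14 macrophage markers, 3 measured, the list mean was -0.12 to 0.92 in Crebbp+/-, -0.14 to 0.83 in Ep300+/- and -0.52 to -0.41 in wild-type stroma, and for deviations from the genotype means its r was 0.82 with Rgs4 and 0.25 with Rgs5. Cd163 was the 1 of the 3 that rose (1.18, limma adjusted p = 0.0228, and up to 0.0918 without Crebbp+/- replicate 1, 2 or 3 or wild-type replicate 2, 3 or 4). It was not called under quantile normalization, with arrays centred on their medians or with the Eif2s3y covariate. Of 9 measured reticular stroma markers 0 passed (median 0.39). Their list mean ran from -0.89 to 0.85 in Crebbp+/-, -1.14 to 0.58 in Ep300+/- and -0.80 to 0.63 in wild type, and its r with Rgs5 was 0.87 for deviations. Of 3 osteoblast markers measured the matrix protein Ibsp fell by 1.75 on the log2 scale (limma adjusted p = 0.0293, up to 0.112 without any of the same arrays) and was not called with the Eif2s3y covariate. Its other probe set had -1.61 (limma adjusted p = 0.0674). Of 8 adipocyte markers measured the fatty acid receptor Cd36 fell by 0.97 (limma adjusted p = 0.0293, up to 0.120 without any of those arrays, Ep300+/- replicate 1 or wild-type replicate 1). It was not called under quantile normalization, with the 2 genotypes alone or with the Eif2s3y covariate. Its other probe sets fell by 1.21 and by 1.69 (limma adjusted p = 0.0184 and 0.0129). Of 3 glial and neural markers measured S100b fell by 1.71 (limma adjusted p = 0.00375, at most 0.0240 without 1 array). In the fit blocked by replicate number, which called 812 probe sets, 2 macrophage markers rose, Cd163 and Fcgr1 (limma adjusted p = 0.00854 and 0.0393). In it 2 osteoblast (Ibsp and Alpl), 2 adipocyte (Cd36 and Cidec) and 2 glial and neural markers (S100b and Mbp) fell. Of the reticular stroma markers 0 passed there. The part of these markers in the Rgs levels was not tested.

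The genes most like each member were found by Pearson's r over the 12 arrays, among 1972 other genes, and no p is given for so selected a list. For Rgs5 they were Fibin (r = 0.972), the tight junction protein Tjp1 (0.972), S1pr1 (0.971), the immunoproteasome subunit Psmb8 (0.969), the imprinted gene Mest (0.969), the collagen Col8a1 (0.966), the ubiquitin ligase Trim25 (0.963), the endothelial receptor Adgrl4 (0.961), the endothelial adhesion molecule Icam2 (0.958) and Plekhg1 (0.953). That r holds the genotype step, so it was also taken on deviations from the genotype means, where it was 0.951 for S1pr1, 0.943 for Tjp1 and 0.840 for Plekhg1, the lowest. On deviations 2 of these 10 genes ranked among the first 10. Crebbp+/- exceeded wild type by log2 fold changes from 0.64 (Psmb8) to 2.43 (Icam2) in these 10. For Rgs4 the genes were the lipase inhibitor Angptl4 (r = 0.957), the interferon-induced Oasl1 (0.946), Gabpb1 (0.942), the P-selectin gene Selp (0.942), the endothelial matrix protein Mmrn2 (0.937), the Fc receptor Fcgr4 (0.935), Clic4 (0.933), the interferon-induced Rsad2 (0.929), Shroom2 (0.921) and Cdh5 (0.914). On deviations r was 0.681 to 0.867 for these 10, which ranked between 41 and 215 by it. The lists of 10 shared 0 genes. Rgs4 itself had r = 0.873 with Rgs5 over the arrays and 0.559 on deviations, below the 0.911 to 0.981 between the Rgs5 probe sets.

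Genes beside Rgs5 and Rgs4 on chromosome 1 gave no call where they were measured. Of the 10 protein-coding genes on each side, 3 of 20 were measured. Hsd17b7, a sterol synthesis enzyme and the second gene beyond Rgs4, averaged 6.50 in Crebbp+/-, 6.45 in Ep300+/- and 6.54 in wild type (log2 fold change of Crebbp+/- against wild type -0.038, limma adjusted p = 0.958). Mgst3 and Aldh9a1, on the side of Rgs5, had log2 fold changes of -0.20 and -0.59 (limma adjusted p = 0.754 and 0.116). In Ep300+/- against wild type the 3 genes had -0.087, 0.25 and 0.087 in the same order, and none passed. The nearest genes on either side, Nuf2 and Ccdc190, were not analysed here.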

How the data were processed

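Per the labels' protocols, total RNA of irradiated stroma cultures was biotin-labelled and hybridized to Affymetrix arrays, 4 per genotype. The deposited values are on the log2 scale and come from GCRMA, as the submitters' processing notes name it, with no version named there. The table held 3127 rows, of which 18 control rows were left out, and the limits on spread and level given above were read from the values. The number of arrays limits the precision.

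Genes were named from the platform annotation where it gave 1 symbol (2486 probe sets, 1974 genes), and neighbours were read from the RefSeq gene table of GRCm38.p6. Without further normalization, lmFit and eBayes of limma 3.58.1 (R 4.3.3, two-sided) were run on the 12 arrays together, with 1 coefficient per genotype, Benjamini-Hochberg adjustment over 3109 probe sets and a threshold of 0.05, and were tested on simulated data. The members and gene lists were chosen with earlier results of these data known. Named genes were the members, the 10 genes of highest r for each, up to 6 members of smallest p per list and the measured neighbours, and others were named after their values were seen.

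Arrays of the same number deviated together from their genotype means. For Crebbp+/- and wild type the lowest r was 0.448 and the highest 0.603, and for Crebbp+/- and Ep300+/- they were 0.294 and 0.513, which was taken as a pairing there. The labels do not say what a number shares. For Ep300+/- and wild type r was 0.059 for number 3 and 0.345 to 0.683 for the other numbers, and no pairing was taken. The intervals and permutation tests given for that contrast therefore do not use the numbers.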

Additional observations from a re-analysis of the deposited data

Results flagged for a closer look

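Chance marks about 1 in 20 groups of 4 as holding an array far from the others, judged by the gap to the nearest array as a share of the group's range, set against Dixon's critical value for 4 samples. Of the groups examined, 105 in all, 15 were marked. In Ep300+/- stroma all 4 Rgs5 probe sets were marked for the low replicate 4, with gaps of 0.832 by 1417466_at, 0.875 by 1420940_x_at, 0.879 by 1420941_at and 0.844 by 1420942_s_at. Since the probe sets measure 1 transcript, these are 1 observation. In Crebbp+/- stroma Rgs5 was marked by 1417466_at, with 0.901, for its replicate 4.

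Among gene list means, the pericyte recruitment signals (0.93) and the endothelial markers (0.832) of Crebbp+/- stroma were marked for the low replicate 4, and the endothelial markers of wild type (0.952) for the high replicate 1. The G protein subunits of Ep300+/- stroma were marked with 0.991, the smooth muscle genes of Crebbp+/- stroma with 0.837, and the macrophage markers with 0.862 in Ep300+/- and 0.872 in wild-type stroma. Single genes marked were Pdgfb in Ep300+/- (0.87), Rgs3 in Crebbp+/- (0.852) and Angptl4 in Ep300+/- stroma (0.857).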

How the results depend on the processing

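The Crebbp+/- differences of all 5 probe sets, against wild type and against Ep300+/-, kept their sign and moved by less than 1 SD, pooled over the 2 genotypes compared, under every alternative run, single arrays left out included. A filter on low values, other eBayes settings, a fit of the 2 genotypes alone and the replicate block cannot move a difference of means. Those alternatives therefore do not check it. Without any 1 array the difference from wild type was 2.33 to 3.02 by 1417466_at, 3.39 to 4.55 by 1420940_x_at, 3.66 to 4.91 by 1420941_at, 3.20 to 4.12 by 1420942_s_at and 1.44 to 1.86 for Rgs4. With the Eif2s3y covariate it was below these ranges for 1417466_at (2.08), 1420942_s_at (3.07) and Rgs4 (1.39). In that fit the Crebbp+/- mean rests on replicates 2 and 4 alone.

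Ep300+/- against wild type passed under none of them for any probe set, but the sign of the small Rgs5 values turned: to -0.054 for 1417466_at under quantile normalization, and to -0.013 for 1420941_at and -0.044 for 1420942_s_at with arrays centred on their medians. Without 1 array the values ran from -0.11 to 0.63 by 1417466_at, -0.29 to 0.97 by 1420940_x_at, -0.51 to 0.93 by 1420941_at and -0.37 to 0.73 by 1420942_s_at, and were lowest without wild-type replicate 4 (3 for 1420941_at) and highest without Ep300+/- replicate 4. Rgs4 ran from 0.013 to 0.49. The cause was not tested.

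Counts over all probe sets were far less stable. Of 192 in Crebbp+/- against wild type, 199 against Ep300+/- and 0 in Ep300+/- against wild type, the replicate block gave 812, 760 and 1, array weights 1267, 1273 and 13, and the Eif2s3y covariate 3 and 0 in the first pair. In a fit of the 2 genotypes alone Crebbp+/- against Ep300+/- gave 51. Without 1 array they were 5 to 383, 2 to 374 and 0 to 1. For the pericyte and mural markers the count of 1 became 5 with the replicate block, 5 with array weights, 0 with the Eif2s3y covariate, 0 with the 2 genotypes alone, 2 with a gene's probe sets averaged and 0 to 4 without 1 array. For the endothelial markers the count of 9 became 15 with the replicate block, 15 with array weights, 0 with the Eif2s3y covariate and 0 to 15 without 1 array. With that covariate the Crebbp+/- mean rests on replicates 2 and 4 alone. Its counts therefore cannot tell the Eif2s3y class from the loss of replicates 1 and 3. Leaving out the 3 arrays numbered 4 together, chosen after seeing the data, gave 2 and 14 in these lists. The replicate block changed no difference of a member, and with each number present once in every genotype it could not.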
